A study of Mus musculus with 6 samples.

Results

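The unfolded protein and amino acid stress genes Atf4, Atf5, Ddit3, Trib3, Asns, Xbp1, Herpud1, Edem1, Ero1l and Psat1 were followed in cultured embryonic mouse kidneys. They were taken as every probe of the array, other than control spots, whose gene name in the scanner files equals 1 of these 10 symbols. This gave 14 of 41174 probes: 1 probe each for 7 genes, 2 each for Trib3 and Ero1l, and 3 for Edem1. Ero1l is called Ero1a in current annotation.

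Kidneys were dissected from E13.5 embryos of CD1 mice and cultured on filters as explants, with 2.0 µg/ml of either Scriptaid or Nullscript for 6 hours. Scriptaid, a hydroxamic acid, blocks histone deacetylases (HDACs), and Nullscript is a related compound used as its inactive control. RNA of both treatments was hybridised together to 2-colour arrays, and each of 3 biological replicates was measured on 2 arrays with the dyes exchanged. The groups are therefore 3 arrays with Scriptaid labelled in Cy3 and 3 arrays with Scriptaid labelled in Cy5. All kidneys came from the same strain and age, no group carries a genetic change, and a group without any drug was not analysed here. Per the labels, the kidneys of a pair received different drugs. The sources used here do not say how many embryos make up a replicate, and the p-values measure the spread between these 3 replicates.

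Misfolded protein in the endoplasmic reticulum (ER) activates the sensors PERK, IRE1 and ATF6, which raise chaperones and the machinery that degrades misfolded protein. PERK and the amino acid sensor GCN2 phosphorylate the initiation factor eIF2alpha, which slows translation in general and favours that of the transcription factor ATF4. ATF4 in turn induces the factors ATF5 and CHOP (the product of Ddit3), the inhibitor TRIB3, and enzymes that make and import amino acids.

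Ratios are log2 of the intensity in the Scriptaid-labelled channel over that in the Nullscript-labelled channel, with the drug of each channel taken from the dye fields of the arrays. This direction is not settled. In the Nullscript-labelled channel lay the higher values of all 9 genes that are known to rise when HDACs are inhibited, among them the linker histone gene H1f2 at -1.72 ± 0.06 (SD, n = 3) and Txnip at -1.01 ± 0.08. Of 6 genes known to fall, 5 were higher in the Scriptaid-labelled channel. Eya1 and Wt1, which the study is known to describe as lower after HDAC inhibition, had 1.64 ± 0.18 and 0.97 ± 0.07. The other probe of Eya1 had 0.48. If the drug names were exchanged on every array, every sign given here would turn.

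Between 91.5% and 96.5% of the spots other than controls were well above background in each channel, and all 14 stress gene probes were so on all 6 arrays in both channels, with none saturated. Precision is limited by the number of replicates, 3. Turned to this direction, the ratios over all probes correlated at 0.752 to 0.857 between the 2 arrays of a replicate, and more highly, at 0.871 to 0.943, where dyes matched but replicates differed. All 12 embryonic kidney markers were well above background on enough arrays to be tested, and 9 of them, the nephron progenitor genes Wt1, Eya1 and Cited1 and the stromal gene Foxd1 included, were higher in the Scriptaid-labelled channel. Pax2, Ret and Wnt11 did not pass. The summed intensity of the 12 was 60900 to 66500 in that channel and 36400 to 39100 in the other, and most of both sums came from Foxd1 and Wt1. Markers of other cells moved too. Of 8 red blood cell markers 4 were higher in the Nullscript-labelled channel and 1 in the other, with sums of 101000 to 115000 there and 81100 to 96500 in the Scriptaid-labelled channel. The 1 higher in the Scriptaid-labelled channel was Epor, at 0.53. Most of both sums came from Hba-a1 and Hbb-y. Hba-a1 had 65400 to 67400 in the Nullscript-labelled channel and 51300 to 53400 in the other, with 6 saturated readings over both channels of all arrays. Of 8 leukocyte markers 4 were higher in the Scriptaid-labelled channel and 1 in the other, with sums of 7010 to 8150 there and 5350 to 6850 in the Nullscript-labelled channel. Among these 4, Ptprc had 1.075 by its brightest probe and -0.11, 0.02 and 0.15 by others, and Lyz2 had 0.89 and 0.18 by its other. Of 8 neuronal markers 5 were higher in the Nullscript-labelled channel and 1 in the other, with sums of 7840 to 8980 there and 7240 to 7880 in the Scriptaid-labelled channel. Among these 5, Nefm had -1.33 by its brightest probe and -0.14 by its other, and Stmn2 -1.16 and -0.19. Elavl4, the 1 on the other side, had 1.29 by its brightest probe and 0.71 by its other. None of these markers is at 0. Their part in the results below was not tested, and in whole kidneys fewer cells of a type and less RNA per cell cannot be told apart.

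Some of the promoters carry short sequences through which the stress factors act, and the windows below show them for the members that have any and for 2 chaperone genes described later. The promoter window runs from 250 bases before to 50 bases after the annotated start, in RefSeq's promoter table (build GRCm38.p6), where all 10 genes were matched. Capitals mark the match and each line reads 5′ to 3′ on the strand of the gene. The C/EBP-ATF response element was searched as TGATGNAA, the ER stress response element as CCAAT, 9 bases of any kind and CCACG, and its second form as ATTGG, 1 base of any kind and CCACG, on both strands. The 2 matches of Herpud1 do not overlap.
Asns, C/EBP-ATF element at -23 to -16, chr6:7693214-7693243, minus strand: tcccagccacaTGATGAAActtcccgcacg
Trib3, C/EBP-ATF element at 15 to 22 on the opposite strand, chr2:152344028-152344057, minus strand: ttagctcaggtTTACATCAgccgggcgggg
Herpud1, C/EBP-ATF element at -112 to -105 on the opposite strand, chr8:94386306-94386335, plus strand: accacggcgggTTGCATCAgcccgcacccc
Herpud1, second form of the ER stress element at -52 to -42, chr8:94386368-94386397, plus strand: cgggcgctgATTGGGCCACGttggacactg
Hspa5, ER stress element at -65 to -47, chr2:34772020-34772049, plus strand: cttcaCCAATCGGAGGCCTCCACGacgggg
Creld2, ER stress element at -126 to -108 on the opposite strand, chr15:88819515-88819544, plus strand: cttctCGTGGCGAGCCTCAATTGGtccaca

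The C/EBP-ATF letters were found in the windows of 3 of the 10 genes and of 4.51% of 27025 genes (3.97% of all 32851 promoter windows of this length). The second form of the ER stress element was found in 1 of the 10 and in 0.0444% of genes (0.0365% of windows), and the first form in none of the 10 and in 0.137% of genes (0.119% of windows). An unfolded protein response element, searched as TGACGTGG on both strands, was found in none of the 10 and in 0.714% of genes (0.676% of windows). A match is a description of these windows, not a measured binding site.

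The stress genes did not move as a group. By the brightest probe of each gene, 4 of the 10 were higher in the Scriptaid-labelled channel (Atf5, Herpud1, Xbp1 and Atf4) and 4 were higher in the Nullscript-labelled channel (Ddit3, Trib3, Ero1l and Asns) at a limma adjusted p under 0.05. Edem1 and Psat1 did not pass by that probe. Over all 26500 genes tested, 45.4% passed, 22.2% in the first and 23.2% in the second direction. By probes, 10 of 14 passed, against 45.2% of 39407 probes. The median ratio of the 10 genes was -0.02, against -0.01 over all genes, while their median absolute ratio was 0.54, against 0.10 over all genes. All 10 kept the sign of their ratio on all 6 arrays by the brightest probe, Edem1 and Psat1 among them. How many of all genes do so was not counted, so it is not given as a trait of the 10. Exchanging the drug names would leave the counts at 4 and 4.

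**Figure D1:**
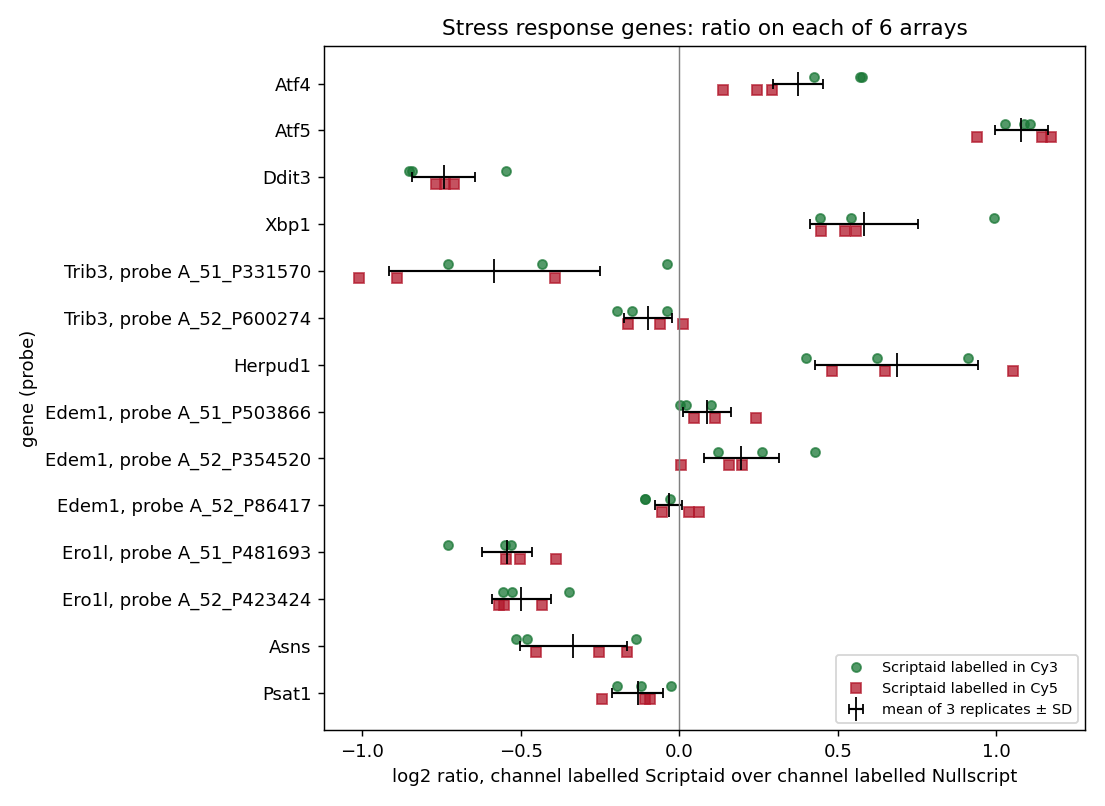
The log2 ratio (horizontal axis, Scriptaid-labelled channel over Nullscript-labelled channel) of each of the 14 probes, with 1 point per array by dye orientation and the mean ± SD of the 3 replicates, after averaging the 2 arrays of each. Atf5 lies furthest to the right, with array values from 0.94 to 1.17, and Ddit3 furthest to the left by its mean of -0.74.

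Among the transcription factors, Atf5, a factor that ATF4 induces and that itself activates stress genes, had the largest ratio of the 10 genes. Its normalised intensity was 11000, 14600 and 10700 in the Scriptaid-labelled channel in replicates 1, 2 and 3, and 5030, 7350 and 4900 in the Nullscript-labelled channel. The lowest of the first channel lies above the highest of the other. The log2 ratio was 1.08 ± 0.08 (SD, n = 3), which is 2.11-fold (limma adjusted p = 0.000214). Only 3.03% of all genes passed with a difference of at least 2-fold (2.63% of probes), and Atf5, the 1 stress gene to do so, stood at place 353 of 26500 genes ordered from the highest ratio, or at 26149 with the drug names exchanged.

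Atf4, the factor at the centre of the response to eIF2alpha phosphorylation, moved the same way and less. Its intensity was 2940, 3050 and 2700 in the Scriptaid-labelled channel and 2420, 2300 and 2000 in the Nullscript-labelled channel, without overlap. This gave a log2 ratio of 0.38 ± 0.08 (limma adjusted p = 0.00185). It differed between the dye orientations, with 0.43, 0.58 and 0.57 on the arrays with Scriptaid in Cy3 and 0.14, 0.24 and 0.29 on those with Scriptaid in Cy5, all on the same side of 0. The difference between orientations passed for 3.82% of all probes and for 1 of the 14 stress gene probes, this one. It no longer passed with plain background subtraction or when any replicate was left out. ATF4 is controlled largely through its translation, which was not measured here.

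Xbp1 encodes the factor whose mRNA the sensor IRE1 splices, and its splicing was not analysed here. Its intensity was 2380, 2010 and 2170 in the Scriptaid-labelled channel and 1640, 1470 and 1270 in the Nullscript-labelled channel. No value of 1 channel reached those of the other. On the log2 scale the ratio was 0.58 ± 0.17 (limma adjusted p = 0.00241), and the array of replicate 3 with Scriptaid in Cy3, at 0.99, stood above the other 5, which lay between 0.44 and 0.56.

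Ddit3, which encodes the cell death factor CHOP, went the other way from Atf4 and Atf5. Its intensity was 1170, 1660 and 1220 in the Scriptaid-labelled channel and 2050, 2570 and 2120 in the Nullscript-labelled channel. All 3 replicates were lower in the Scriptaid-labelled channel, and the channels did not overlap. Ddit3 had a log2 ratio of -0.74 ± 0.10, which is 1.67-fold higher in the Nullscript-labelled channel (limma adjusted p = 0.000422), and both dye orientations had means of -0.75 and -0.74.

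Trib3, an inhibitor of ATF4 and CHOP that they themselves induce, lay on the side of Ddit3 by the brighter of its probes. That probe, which the array file assigns to transcript variant 1, had an intensity of 523, 815 and 582 in the Scriptaid-labelled channel and 828, 948 and 1060 in the Nullscript-labelled channel. Replicate 2 showed the smallest difference. The replicate ratios were -0.66, -0.22 and -0.87, with a mean of -0.58 ± 0.33 (limma adjusted p = 0.0181). The call was lost without replicate 1 (limma adjusted p = 0.0563), without replicate 3 (0.0777), and on the arrays with Scriptaid in Cy3 alone (0.0607). The other probe, assigned to transcript variant 2, had -0.10 ± 0.08 and did not pass (limma adjusted p = 0.107), and the mean over both probes was -0.34.

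**Figure D2:**
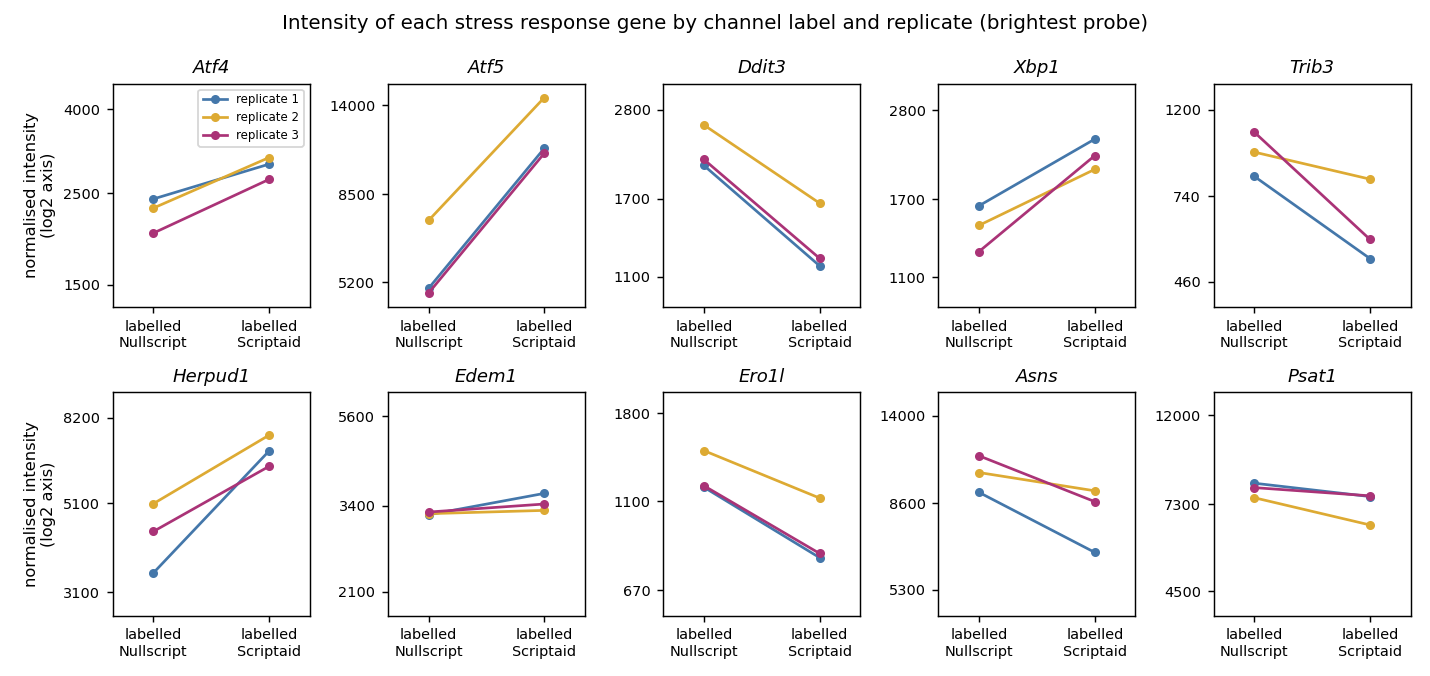
Normalised intensity (vertical axis, log2 scale, with the same span in every panel) of the brightest probe of each gene under each drug label (Nullscript left, Scriptaid right), with 1 line per replicate, each point the mean over the 2 dye orientations. Lines rise to the right for Atf4, Atf5, Xbp1 and Herpud1 and fall for Ddit3, Trib3, Ero1l and Asns, while those of Edem1 and Psat1 are nearly flat.

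The genes that act on ER protein itself were also split. Herpud1 encodes an ER membrane protein that organises the degradation of misfolded proteins. Its intensity was 6820, 7450 and 6260 in the Scriptaid-labelled channel and 3450, 5080 and 4350 in the Nullscript-labelled channel, without overlap. Herpud1 had a log2 ratio of 0.69 ± 0.26, which is 1.61-fold (limma adjusted p = 0.00464). Replicate 1, at 0.98, stood above replicates 2 and 3, at 0.55 and 0.52.

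Edem1, a lectin that hands misfolded glycoproteins to degradation, differed little. Its brightest probe had intensities of 3640, 3310 and 3430 in the Scriptaid-labelled channel and 3230, 3250 and 3280 in the Nullscript-labelled channel. The log2 ratio was 0.09 ± 0.08 and did not pass (limma adjusted p = 0.142), except with median centring in place of loess, where it was 0.18 (adjusted p = 0.0354). Of its other probes, A_52_P354520 had 0.20 ± 0.12 and passed (limma adjusted p = 0.0341), and A_52_P86417 had -0.03 ± 0.04 and did not (adjusted p = 0.464). The call of A_52_P354520 was lost without replicate 1 (adjusted p = 0.0985) and without replicate 3 (adjusted p = 0.177). It was also lost with Agilent's processed signals and with the authors' value table (limma adjusted p = 0.0561 for both), and on the arrays with Scriptaid in Cy5 alone (0.126). No direction is therefore given for Edem1.

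Ero1l encodes the oxidase that supplies disulfide bonds to folding proteins and is a target of CHOP and of hypoxia. By its brighter probe the intensity was 803, 1120 and 822 in the Scriptaid-labelled channel and 1190, 1460 and 1200 in the Nullscript-labelled channel, without overlap. This probe had a log2 ratio of -0.50 ± 0.09 (limma adjusted p = 0.00103). The other probe had -0.54 ± 0.08 (limma adjusted p = 0.000636), so Ero1l was the gene of the 3 with several probes whose probes all passed in 1 direction.

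The remaining members are enzymes of amino acid synthesis. Asns, which makes asparagine and is a target of ATF4, had intensities of 6530, 9210 and 8670 in the Scriptaid-labelled channel and 9130, 10200 and 11200 in the Nullscript-labelled channel. The channels overlapped, since replicate 2 with Scriptaid exceeded replicate 1 with Nullscript, but each replicate was lower with the label Scriptaid. The log2 ratio was -0.33 ± 0.17 (limma adjusted p = 0.0148), with -0.48, -0.15 and -0.37 in the 3 replicates, and the call was lost without replicate 3 (adjusted p = 0.0927). Psat1, an enzyme of serine synthesis, had intensities of 7630, 6510 and 7660 in the Scriptaid-labelled channel and 8220, 7580 and 8020 in the Nullscript-labelled channel. Its log2 ratio of -0.13 ± 0.08 did not pass (limma adjusted p = 0.0542), but it passed under 5 of 17 alternatives, and with median centring it was -0.03.

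Beside the promoter letters, the 3 genes with a C/EBP-ATF match did not share a direction. Asns and Trib3 were higher in the Nullscript-labelled channel, and Herpud1, which also holds the second form of the ER stress element, was higher in the Scriptaid-labelled channel.

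Further genes of these pathways were taken from 6 lists with 124 genes, all of them measured, counted by the brightest probe. Of these, 24 were higher in the Scriptaid-labelled channel, 58 were higher in the Nullscript-labelled channel and 42 did not pass, against 22.2% and 23.2% of all genes in the 2 directions. With median centring the counts were 34 and 44, while over all 39407 probes they went from 9244 and 8577 to 9307 and 11634 in the same order of directions. No test of a list was made, and the counts of each list below are to be read beside the shares of 22.2% and 23.2% of all genes.

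ER chaperones and folding enzymes lay mainly on the side of Ddit3 and Ero1l. Of 22 genes, 15 were higher in the Nullscript-labelled channel, 2 in the Scriptaid-labelled channel and 5 did not pass, with a median log2 ratio of -0.31. The first 2 counts were 11 and 2 with median centring, and 13 and 2 with saturated spots left out. Hsp90b1, Pdia6 and Ppib, counted among the 15, had 9, 6 and 2 saturated readings over both channels of all arrays. Hspa5, the ER chaperone BiP and the classic target of the response, had a log2 ratio of -0.57 ± 0.10 (limma adjusted p = 0.000749) and was saturated in 1 channel of 1 array. Creld2, a stress-induced ER protein, had -0.76 ± 0.14, and the chaperone Hyou1 had -0.62 ± 0.11 by its brightest probe and -0.02 by its other. Ero1b, the relative of Ero1l, had -1.18 ± 0.04 by its brightest probe and -0.46 and -0.01 by others. The ER stress element was found in the promoter windows of 7 of the 19 genes of this list that the promoter table holds, Hspa5, Creld2 and Ero1b among them. Herpud1 and Xbp1, which respond to the same sensors, thus had ratios of the opposite sign to these 4 chaperone list genes. The 4 were picked by their absolute ratio. The 2 genes of the list that passed on the side of Herpud1 were Fkbp2 and Txndc5. Fkbp2 had 0.51 ± 0.05, with 0.56 by its other probe, and Txndc5 0.32 ± 0.08, with 0.02 by its other.

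Genes of ER-associated degradation and export, the list closest in function to Herpud1 and Edem1, had 15 of 24 members higher in the Nullscript-labelled channel and 3 in the Scriptaid-labelled channel, or 11 and 5 with median centring. The median ratio was -0.18. Derl3, a channel protein of the pathway, had -1.08 ± 0.16, Edem3, a relative of Edem1, -1.05 ± 0.03, and the lectin gene Os9 -0.78 ± 0.08 (limma adjusted p of 0.000387 or lower for each). Sel1l, the partner of the degradation ligase, had -0.47 ± 0.08 by its brightest probe and 0.01 and -0.01 by others.

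The sensors and eIF2alpha regulators had calls in both directions. Of 18 genes, 8 were higher in the Nullscript-labelled channel, 6 in the Scriptaid-labelled channel and 4 did not pass, with a median of -0.12. Without replicate 3, 9 of the 18 passed, 7 higher in the Nullscript-labelled channel and 2 in the other. With the arrays that had Scriptaid in Cy3 alone, 9 passed as well, 6 and 3. Atf6, an ER stress sensor, had -0.66 ± 0.12 (limma adjusted p = 0.000787), with -0.30 by its other probe, and Creb3, a related membrane-bound factor, -0.55 ± 0.12. Ppp1r15a, which restores eIF2alpha to its unphosphorylated form and is induced through ATF4, had -0.42 ± 0.25 (limma adjusted p = 0.0225). Without replicate 1 it was -0.27 (limma adjusted p = 0.00698). Its call was lost when the arrays with Scriptaid in Cy3 stood alone, at -0.23 (limma adjusted p = 0.309), and with the slide as a block (adjusted p = 0.0563). Creb3l2 had -0.36 ± 0.08 by its brightest probe and 0.18 by its other, so no direction is given for it.

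Targets of ATF4 and CHOP went both ways, as did the factors themselves. Of 24 genes, 8 were higher in the Nullscript-labelled channel, 4 in the Scriptaid-labelled channel and 12 did not pass, or 8, 7 and the rest with median centring, and the median was -0.05. Vldlr, a lipoprotein receptor gene, had 1.18 ± 0.08 with 0.96 by its other probe, and the amino acid transporter gene Slc38a2 had 0.92 ± 0.11 with 0.33 to 0.83 by others. On the other side were Atf3, a stress-induced partner of CHOP, at -0.85 ± 0.11, and Cebpb at -0.71 ± 0.24 with -0.36 by its other probe (limma adjusted p of 0.00343 or lower for these 4 genes).

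**Figure D3:**
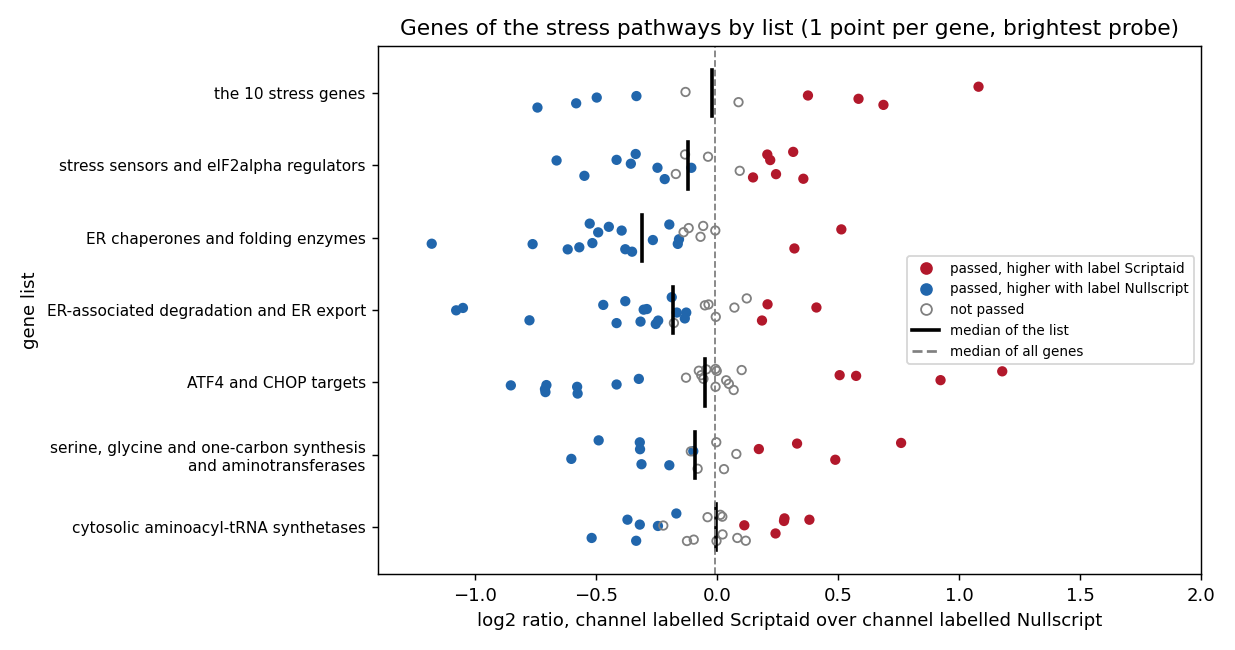
The log2 ratio (horizontal axis) of each gene in the 10 stress genes and in the 6 pathway lists, by brightest probe, with filled points for genes that passed (red for higher in the Scriptaid-labelled channel, blue for higher in the Nullscript-labelled channel), open points for those that did not, a black bar for the median of each list and a dashed line for the median of all genes. The ER chaperone list has its median at -0.31, the furthest from that of all genes at -0.01, and the 10 stress genes lie on both sides.

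The list of serine, glycine and one-carbon synthesis and aminotransferases, to which Psat1 is closest in function, had 7 of 16 genes higher in the Nullscript-labelled channel and 4 in the Scriptaid-labelled channel. With median centring the counts turned to 4 and 6, and with the slide as a block 7 of the 16 passed. Mthfd1l and Shmt1, enzymes of the folate cycle, had 0.76 ± 0.07 and 0.49 ± 0.08 (0.20 by the other probe of Shmt1), while Mthfd2, the mitochondrial folate enzyme that ATF4 induces, had -0.60 ± 0.24 and the aminotransferase gene Got1 -0.49 ± 0.07 (limma adjusted p of 0.00619 or lower for each). The last list holds 21 genes, all for cytosolic aminoacyl-tRNA synthetases, which load amino acids onto tRNAs, except Xpot, a tRNA export receptor gene with 0.28. Of the 21, 6 were higher in the Nullscript-labelled channel, 5 in the Scriptaid-labelled channel and 10 did not pass. This is near the 23.2% and 22.2% of all genes in these directions, and the median was -0.003. With median centring the first 2 counts turned to 4 and 7. Tars had -0.52 ± 0.06 by its brightest probe and -0.28 by its other. Cars had -0.37 ± 0.02, with -0.36 and -0.26 by others, and Kars -0.33 ± 0.07. Dars had 0.38 ± 0.19 by its brightest probe and 0.32, 0.20 and -0.004 by others, a call of the brightest probe lost without replicate 2 (limma adjusted p = 0.0594) and without replicate 3 (adjusted p = 0.0724).

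The genes whose ratios on the 6 arrays lay closest to those of Atf5, among 26414 other genes with a value on each array, were Msl1, Epc2 and Snx9. Their Euclidean distances over the 6 log2 ratios were 0.0828, 0.0893 and 0.117, and their mean ratios were 1.09, 1.09 and 1.10.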

How the data were processed

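Each scanner file holds spot and local background intensity for Cy3 and Cy5, processed intensities, and a log10 ratio (Cy5 over Cy3), written by Agilent Feature Extraction 9.1.3.1 per the file headers. The authors' deposited value table holds log10 ratios equal to these once turned to Scriptaid over Nullscript (within 4.82e-06, column medians -0.00959 to -0.00136). Mean intensity was corrected by normexp (offset 50), then normalised within arrays by loess, using limma 3.58.1 in R 4.3.3. Control spots had weight 0, outlier-marked spots were left out and saturated spots kept. The mean of 3 replicates, each averaged over its 2 arrays, was set against 0 (lmFit, eBayes). Benjamini-Hochberg adjustment covered the 39407 probes well above background on at least 3 arrays for either drug. A gene is represented by its brightest probe, and channel intensities are after loess and Aquantile. Of 41174 probes, 22951 were named by accession, 6659 by current symbol, 3109 by older symbol and 8455 by the array.

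Arrays of 1 number are the same biological replicate, per the labels. Their deviations from their orientation's mean correlated at 0.61, 0.13 and 0.01 (replicates 1, 2 and 3). In simulated data of 39316 probes, 100 were given a log2 change of 0.5 and 100 a change of 1. The fit recovered 57.0% and 77.0% of these and called 2 unchanged probes. In the data 45.2% of probes passed, so the simulated shares do not give the sensitivity of the fit there. Named genes are all members, up to 4 per list (largest absolute ratio, test passed, 1 sign in all replicates), and the 3 genes closest to the member with the largest ratio. Members, lists and motifs were chosen with earlier results of these data known.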

Additional observations from a re-analysis of the deposited data

Results flagged for a closer look

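The ratio of Atf4 differed between the dye orientations. On the arrays with Scriptaid in Cy5 it was lower by -0.30 on the log2 scale than on the arrays with Scriptaid in Cy3, where the means were 0.23 and 0.53 (limma on 6 arrays with the replicate as a block, adjusted p = 0.0475). Such a difference was found for 3.82% of 39406 probes, and for 1 of the 14 stress gene probes. This call of Atf4 lies close to the threshold. It was lost with plain background subtraction, with saturated spots left out, and when any replicate was left out. The mean over both orientations cancels a dye effect of equal size.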

How the results depend on the processing

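The number of the 10 stress genes that passed was 6 to 8 when each replicate was left out in turn and 7 to 9 under the other alternatives. Atf4, Atf5, Ddit3, Xbp1, Herpud1 and Ero1l, by its brightest probe, passed with the same sign under all 17. Asns passed under 16 of 17 and the brighter Trib3 probe under 14. Not all 17 are separate checks. Changes to the probe filter, the outlier marks or the saturated spots left the ratios of these probes as they were. The authors' value table holds nearly the same ratios as Agilent's processed signals. The Edem1 probe A_52_P86417, which did not pass, turned to 0.027 with median centring and to 0.013 on the arrays with Scriptaid in Cy5 alone. Without replicates 1, 2 and 3 in turn, 11668 to 16397 of all probes passed, the lowest without replicate 3, against 17821 in all. Because the slide of replicates 1 and 2 did not hold replicate 3, the values without replicate 3 are those within 1 slide. One probe per gene and the mean over probes gave 12251 and 12599 calls among 26500 genes, fewer features than the 39407 probes. The fit of 6 arrays with the replicate block and a dye effect called 9 stress genes, 86 pathway genes and 18846 probes. It changed the call of no stress gene other than Psat1, at -0.13 (adjusted p = 0.0192). A dye effect on a stress gene probe was called for 0 probes with plain background subtraction, for 0 with saturated spots left out, for 10 with median centring and for 0 to 0 without each replicate in turn, by limma. At an unadjusted p under 0.05 these were 1, 1, 10 and 1 to 2. The cause of these changes was not tested. Median centring moved the median over all probes to -0.035, from -0.004. Over all alternatives the pathway genes that passed were 60 to 86 of 124.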

Other observations

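Several pathway genes gave different ratios by different probes, in addition to those named in the comparison. Sesn2, a stress-induced regulator of growth signalling, had 0.10 by its brightest probe, which did not pass, and -0.69 ± 0.09 by its other (limma adjusted p = 0.000431). The brightest probe of the cystine transporter gene Slc7a11 gave -0.13, and a further one 0.39 ± 0.15 (limma adjusted p = 0.00714). For Ssr1, a subunit of the ER translocon complex, the brightest probe gave 0.07 and a further one -0.61 ± 0.14 (limma adjusted p = 0.00128). The neutral amino acid transporter gene Slc1a4 had -0.71 by its brightest probe and -0.18 ± 0.02 by its other. These 4 genes were chosen after their values were seen.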
